A study of Mus musculus with 10 samples.

Results

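The genes described here make, take up, sense and export cholesterol. They are 30 named genes out of the 49671 gene IDs counted in whole mouse skin. They were listed by name and role, with earlier results of these data known. By role they fall into 6 lists: 7 genes of the mevalonate steps, 11 of the later sterol steps, 3 of uptake and transport inside the cell, 4 of the SREBP control system, 2 export transporters and 3 genes of the LXR arm. RNA of whole skin was compared between 5 NPYtet mice, homozygous mutants of the B6;129S4-Npytm2Rpa/J strain, and 5 WT mice, their wildtype siblings, all aged 22 weeks. By label, the NPYtet mice were 3 females and 2 males and the WT mice 2 females and 3 males. The title of the series describes the mutant as one that overexpresses Npy, which encodes the transmitter neuropeptide Y. The labels do not describe how the allele is built or which cells of the skin express it.

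Cells build cholesterol from acetyl-CoA through mevalonate, squalene and lanosterol. When membranes of the endoplasmic reticulum run low in sterol, SCAP escorts the SREBP transcription factors to the Golgi, where they are cut and released to turn on the genes of synthesis and uptake. INSIG proteins hold SCAP back when sterol is plentiful. Oxysterols then activate the LXR nuclear receptors, which turn on the exporters ABCA1 and ABCG1 and MYLIP, an enzyme that marks lipoprotein receptors for breakdown. In skin, cholesterol is a main lipid of the barrier of the epidermis, and the sebaceous glands also make sterols.

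Total counts ran from 23209405 reads (NPYtet 5) to 53357695 reads (WT 4). Npy was at 96.2, 245, 166, 129.6 and 485 CPM (counts relative to the scaled library size) in NPYtet replicates 1 to 5, against 1.39, 2.86, 0.0940, 1.32 and 2.17 CPM in WT replicates 1 to 5. It was the 1 gene of 18060 tested that was called by genotype (log2 fold change 7.45 ± 0.62, SE; edgeR adjusted p = 0.000109). The library of NPYtet 1 is labelled female but held 2 reads of Xist and 1513 of the Y-linked Ddx3y, so its label goes against its reads. NPYtet 5 and WT 2 had the lowest scaling factors (0.652 and 0.696) and the fewest genes with a read (19953 and 21144). In NPYtet 5, 9.27% of reads were mitochondrial, against 1.86% to 3.03% elsewhere. The skin markers Krt14, Krt5, Krt10, Col1a1 and Col3a1 were detected in all 10 libraries and summed to 17295 to 55238 CPM in NPYtet skin and 13734 to 75994 CPM in WT skin. In whole tissue, fewer cells of a type and less RNA per cell cannot be told apart. 

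Promoter sequence was available from RefSeq (GRCm38.p6) for 24 of the 30 genes, as windows of 250 bases before to 50 after the annotated start. The sterol regulatory element to which SREBP proteins bind was searched on both strands as TCACNCCAC. Only Hmgcs1 held it among those 24 genes, while 1.44% of all genes with a window did. CCAAT, the box bound by NF-Y, a factor that works beside SREBP at many sterol genes, was in 19 of the 24 (79.2%) and in 14 of the 15 synthesis genes with a window, against 41.1% of all genes. No member held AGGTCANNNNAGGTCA, the direct repeat bound by LXR with its partner RXR, which 0.0148% of all genes held. These matches describe letters only. The bases before the start are printed 5′ to 3′ on the gene's strand for Hmgcs1, as the gene with the sterol element, and for Hsd17b7, chosen after its values were seen because its log2 fold change between the sexes was the highest of the 30 once 1 doubtful library was left out. The Hmgcs1 stretch is chr13:119690101-119690350 (plus strand), with the sterol element in capitals, beginning 137 bases before the start. The Hsd17b7 stretch is chr1:169969206-169969455 (minus strand), with 3 CCAAT boxes in capitals, which read ATTGG on this strand and begin 165, 73 and 12 bases before the start.
Hmgcs1: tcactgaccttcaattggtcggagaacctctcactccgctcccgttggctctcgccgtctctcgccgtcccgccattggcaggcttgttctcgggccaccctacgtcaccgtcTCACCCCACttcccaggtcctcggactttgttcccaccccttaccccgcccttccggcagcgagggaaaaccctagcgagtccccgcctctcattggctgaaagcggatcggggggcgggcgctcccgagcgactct
Hsd17b7: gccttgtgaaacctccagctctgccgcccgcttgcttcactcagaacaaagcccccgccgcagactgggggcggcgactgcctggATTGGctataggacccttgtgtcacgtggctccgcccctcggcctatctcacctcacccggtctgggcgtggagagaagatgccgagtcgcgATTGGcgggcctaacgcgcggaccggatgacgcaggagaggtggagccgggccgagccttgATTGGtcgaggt

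All 30 genes passed the filter on low counts, and the fewest reads of any of them in a library were 83. Per kilobase of merged exons and averaged over the 10 libraries, levels ran from 1.81 CPM per kilobase for Fdps to 62.5 for Hmgcs1. Npc2, at 57.2 CPM per kilobase, and Nr1h2, at 51.8, followed Hmgcs1, and the 2 export transporters were low, with Abca1 at 8.92 and Abcg1 at 4.10. Libraries differed widely for most of the genes: the highest library was 1.81 times the lowest for Fdft1, 8.42 times for Hmgcs1, and 3.74 times at the median. The members did not vary as 1 block. In NPYtet 5, 5 of the 30 had their highest level of the 10 libraries and 5 their lowest, and in WT 2, 9 had their highest and 8 their lowest. The shares of all genes highest or lowest in these libraries were not computed. Counts of Fdft1, Cyp51 and Npc1 may include or lose reads of overlapping genes on the other strand (Ctsb, Akap9 and Rmc1), and those of Tm7sf2 reads of Vps51 on the same strand, since how strand was treated in counting is not given in the sources here. Fdps has processed pseudogene copies, so how its reads were split is uncertain.

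**Figure D1:**
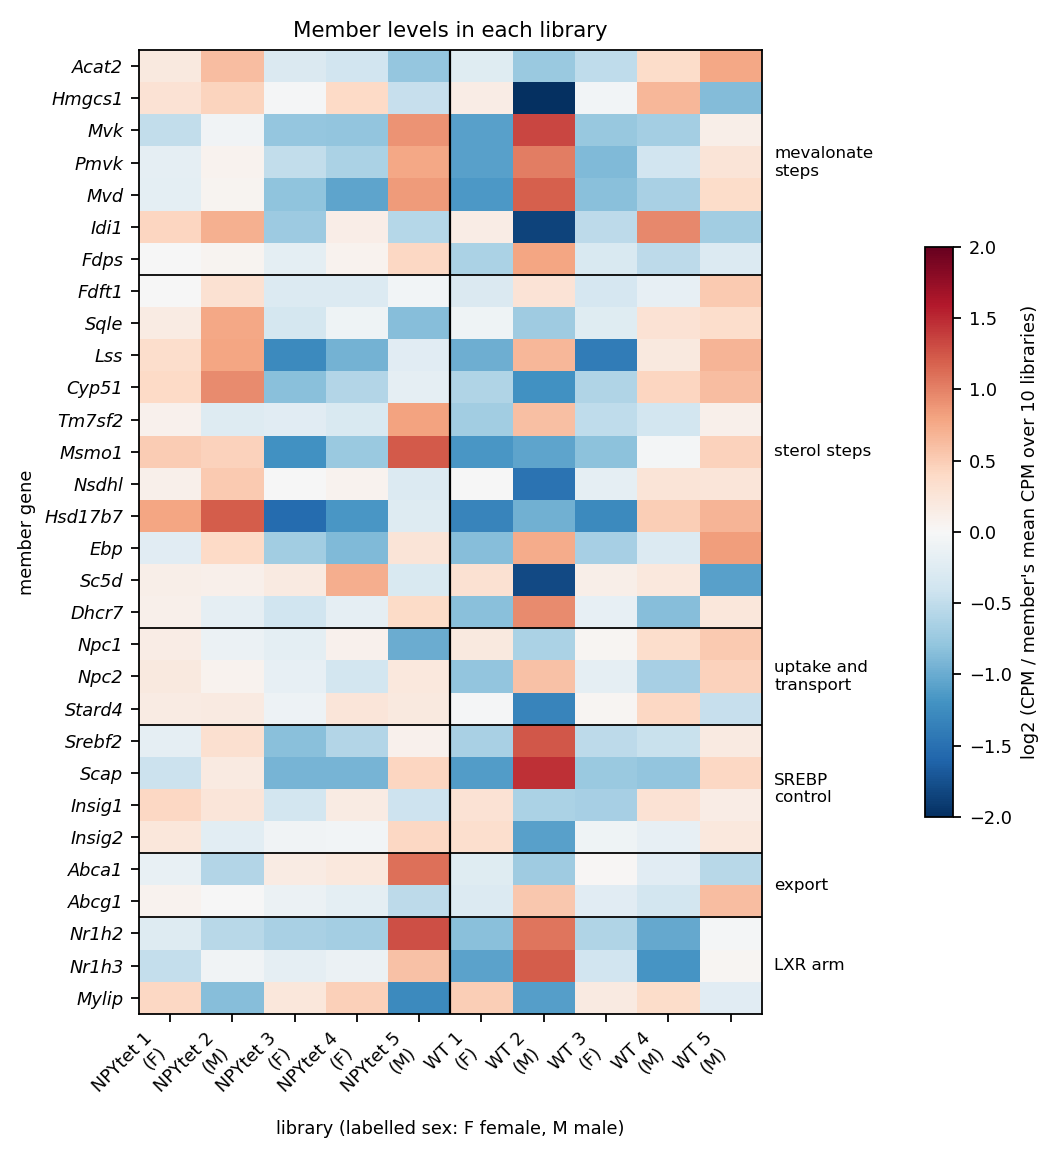
Levels of the 30 genes (rows, by role) in the 10 libraries (columns, NPYtet left of WT, with the labelled sex), as log2 of CPM over each gene's mean CPM. The columns of NPYtet 5 and WT 2 hold both strong red and strong blue cells: 5 genes are highest and 5 lowest in NPYtet 5, and 9 are highest and 8 lowest in WT 2. Such shares over all genes were not computed.

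The first comparison asked whether the genes differ between NPYtet and WT skin. None of the 30 passed the edgeR quasi-likelihood test with sex in the model (adjusted p = 0.999 for each), where 0.00554% of the 18060 genes were called. DESeq2 and limma voom also called none of the 30. DESeq2 called 0.0222% of all genes higher and 0.172% lower in NPYtet skin, and limma voom 0.00554% in each direction. At an unadjusted p under 0.05, 1 member was higher and none lower, against 1.46% of all genes higher and 2.14% lower. That member was Msmo1. No member had 2 groups that did not overlap, as 0.305% of all genes had. Log2 fold changes (NPYtet minus WT) were above 0 for 24 of the 30, against 48.8% of all genes, with a median of 0.19 against -0.01 for all genes. The sex term of that model takes NPYtet 1 as female, as labelled, and without that library the count was 19 of 30. It fell to 16 of 30 when the sex term was left out. All 30 genes were read in the same 10 libraries, so the 24 are not 24 separate observations.

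**Figure D2:**
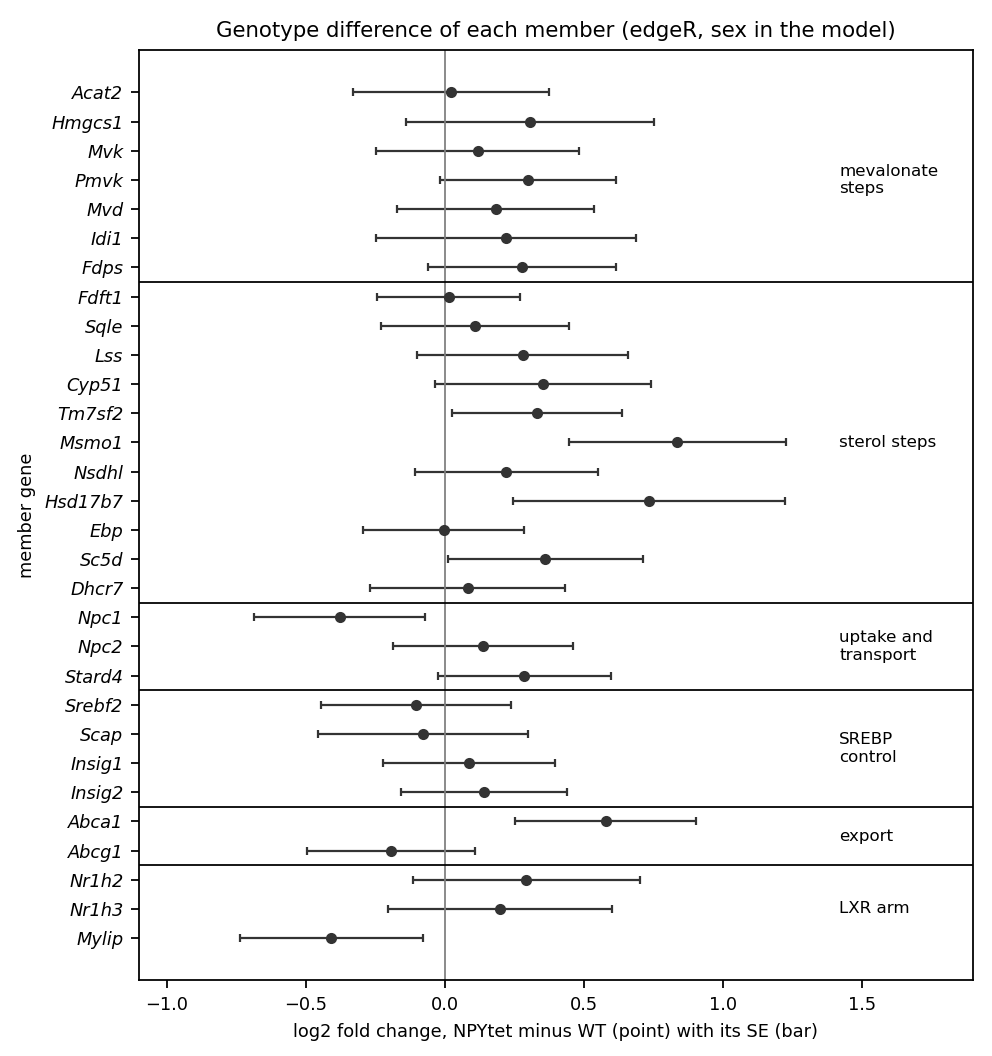
Log2 fold change of each gene, NPYtet minus WT (points), with its SE (bars), from the model with sex, by role. Points of the synthesis steps lie mostly right of 0 with wide bars, from -0.00 for Ebp to 0.84 for Msmo1, while Npc1 and Mylip lie to the left at -0.38 and -0.41.

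Of the 7 genes of the mevalonate steps, none passed the test, and all 7 log2 fold changes were above 0 (0.02 to 0.31, median 0.22). Hmgcs1 (ENSMUSG00000093930, chr13:119690379-119708260, plus strand) encodes the HMG-CoA synthase that commits acetyl groups to the pathway. It was at 350.4, 391.8, 281, 378 and 209 CPM in NPYtet replicates 1 to 5, against 319, 53.8, 278, 453 and 158 CPM in WT replicates 1 to 5. The groups overlapped, and WT 2 was lowest, WT 4 highest. Its means were 322 ± 76.1 CPM in NPYtet skin and 252.3 ± 153 CPM in WT skin (SD, n = 5 each). The log2 fold change was 0.31 ± 0.45 (SE), and it was 0.08 without WT 2, 0.07 without NPYtet 2 and 0.76 without WT 4. Pmvk (ENSMUSG00000027952, chr3:89454541-89469013, plus strand), phosphomevalonate kinase, was at 73.0, 87.4, 58.8, 53.6 and 142 CPM in NPYtet replicates, against 39.2, 169, 45.2, 63.5 and 99.2 CPM in WT replicates. Its highest libraries were NPYtet 5 and WT 2, 1 in each group, and the log2 fold change was 0.30 ± 0.32 (SE), and 0.52 without WT 2. Fdps (ENSMUSG00000059743, chr3:89093588-89101959, minus strand) makes farnesyl diphosphate, where the branches to sterols and to prenylated proteins part. Its levels were 7.55, 7.89, 6.69, 8.01 and 10.2 CPM in NPYtet replicates, against 4.91, 13.2, 6.16, 5.28 and 6.32 CPM in WT replicates. WT 2 was highest of all, and the other WT libraries lay below every NPYtet library. That split sets WT 2 aside after its value was seen, and its share over all genes was not computed. The log2 fold change of Fdps was 0.28 ± 0.34 (SE), and it was 0.52 without WT 2. With sex left out of the comparison, its mean log2 CPM differed by 0.26 (exact permutation p = 0.405, two-sided). The other 4, the thiolase gene Acat2, the mevalonate kinase gene Mvk, the decarboxylase gene Mvd and the isomerase gene Idi1, had log2 fold changes of 0.02, 0.12, 0.18 and 0.22. Acat2 ranged from 30.6 to 80.6 CPM in NPYtet skin and 31.6 to 89.8 CPM in WT skin, and Idi1 from 9.52 to 25.7 CPM in NPYtet skin and 4.39 to 30.7 CPM in WT skin. Mvk ranged from 58.8 to 189 CPM in NPYtet skin and 47.7 to 257 CPM in WT skin, and Mvd from 40.8 to 154 CPM in NPYtet skin and 38.4 to 194 CPM in WT skin, and for both the highest library of each group was NPYtet 5 or WT 2.

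Of the 11 genes that carry farnesyl diphosphate to cholesterol, 10 had a log2 fold change above 0 (median 0.28) and none passed the test. Msmo1 (ENSMUSG00000031604, chr8:64718139-64733792, minus strand), the C4 methyl sterol oxidase, was at 395, 381, 119, 165 and 645 CPM in NPYtet replicates 1 to 5, against 124, 133, 156, 268 and 379 CPM in WT replicates 1 to 5. NPYtet 5 was highest and NPYtet 3 lowest, so the NPYtet group spanned the whole WT range. Msmo1 averaged 341 ± 210.3 CPM in NPYtet skin and 212 ± 109 CPM in WT skin (SD, n = 5 each). Its log2 fold change was 0.84 ± 0.39 (SE; exact permutation p = 0.286, two-sided), and it was 0.123 with NPYtet 1, NPYtet 5 and WT 2 left out. Hsd17b7 (ENSMUSG00000026675, chr1:169949535-169969241, minus strand), the 3-ketosteroid reductase that acts after Msmo1 and Nsdhl on the same C4 methyl groups, was at 149, 200.2, 29.9, 38.4 and 72.5 CPM in NPYtet replicates, against 34.5, 44.4, 35.7, 122 and 138 CPM in WT replicates. Its 5 lowest libraries were NPYtet 3, NPYtet 4, WT 1, WT 2 and WT 3, and the highest was NPYtet 2. The log2 fold change of Hsd17b7 was 0.73 ± 0.49 (SE; exact permutation p = 0.667, two-sided), 0.248 without the same 3 libraries and 0.22 without NPYtet 1 alone. The other 9 ranged from -0.00 for the isomerase gene Ebp to 0.36 for the desaturase gene Sc5d. Among them were Fdft1, which encodes squalene synthase (0.01), Sqle, squalene epoxidase (0.11), Lss, lanosterol synthase (0.28), Cyp51, the lanosterol demethylase (0.36), and Dhcr7, which makes cholesterol from its last precursor (0.08). Levels of Cyp51 ran from 101 to 347 CPM in NPYtet skin and 77.1 to 276 CPM in WT skin, and those of Sqle from 80.7 to 251 CPM in NPYtet skin and 89.1 to 186 CPM in WT skin. Lss ran from 40.1 to 168 CPM in NPYtet skin and 36.9 to 156 CPM in WT skin, and Fdft1, the least variable of the 30, from 104 to 155 CPM in NPYtet skin and 100.1 to 182 CPM in WT skin. Dhcr7 ran from 124 to 216 CPM in NPYtet skin and 91.6 to 318 CPM in WT skin, and Ebp from 35.3 to 86.0 CPM in NPYtet skin and 36.2 to 117 CPM in WT skin. Sc5d ran from 42.0 to 85.7 CPM in NPYtet skin and 14.7 to 63.4 CPM in WT skin, and Nsdhl, the C4 decarboxylase gene, from 35.0 to 60.6 CPM in NPYtet skin and 15.3 to 50.7 CPM in WT skin, with WT 2 lowest for both. Tm7sf2, a sterol reductase gene, ran from 17.4 to 37.6 CPM in NPYtet skin and 13.2 to 32.7 CPM in WT skin. In every one of these 9 genes the ranges of the 2 genotypes overlapped.

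The uptake list holds 3 genes, and none passed the test. They move cholesterol that has entered the cell. Npc2 (ENSMUSG00000021242, chr12:84754562-84773152, minus strand) binds cholesterol in the lysosome and hands it to NPC1 in the membrane. It was at 357, 328, 277, 242 and 359 CPM in NPYtet replicates 1 to 5, against 180.1, 466, 275, 196 and 430.1 CPM in WT replicates 1 to 5. The NPYtet values lay within the WT range, and the log2 fold change was 0.14 ± 0.32 (SE). Npc1, on chromosome 18, was at 74.4, 62.0, 58.6, 71.1 and 33.7 CPM in NPYtet replicates, against 77.1, 43.3, 69.2, 86.0 and 96.2 CPM in WT replicates. NPYtet 5 was lowest, WT 5 highest, and the log2 fold change was -0.38 ± 0.31 (SE; exact permutation p = 0.333, two-sided), and -0.15 without NPYtet 5. Stard4, also on chromosome 18, carries cholesterol between membranes. Its levels were 46.6, 47.1, 38.8, 49.3 and 47.7 CPM in NPYtet replicates, against 41.1, 16.7, 42.7, 55.5 and 30.2 CPM in WT replicates, with SDs of 4.10 CPM in NPYtet skin and 14.6 CPM in WT skin, where WT 2 was the lowest library. The log2 fold change of Stard4 was 0.29 ± 0.31 (SE; exact permutation p = 0.246, two-sided), and it was 0.12 without WT 2.

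The 4 genes of SREBP control stood at 2 above and 2 below 0, with a median log2 fold change of 0.01, and none passed the test. Srebf2 (ENSMUSG00000022463, chr15:82147181-82205379, plus strand), which encodes the SREBP that drives synthesis of cholesterol, was at 235, 330.1, 148, 177 and 281 CPM in NPYtet replicates 1 to 5, against 168, 629, 183, 195 and 299 CPM in WT replicates 1 to 5. WT 2 was highest by far, and the other 9 libraries overlapped between the groups. The log2 fold change of Srebf2 was -0.10 ± 0.34 (SE) and turned to 0.18 without WT 2. Insig2 (ENSMUSG00000003721, chr1:121304353-121332589, minus strand) was at 135, 99.3, 109.9, 111 and 154 CPM in NPYtet replicates, against 146, 54.2, 109, 103 and 133 CPM in WT replicates, with WT 2 lowest and NPYtet 5 highest. Its log2 fold change of 0.14 ± 0.30 (SE) turned to -0.03 without NPYtet 5. Scap had a log2 fold change of -0.08 and ranged from 94.3 to 244 CPM in NPYtet skin and 83.5 to 496 CPM in WT skin. For Insig1 the log2 fold change was 0.09 and the range 63.9 to 113 CPM in NPYtet skin and 53.5 to 104 CPM in WT skin.

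The 2 exporters had log2 fold changes on either side of 0, and neither passed the test. Abca1 (ENSMUSG00000015243, chr4:53030787-53159895, minus strand), which loads cholesterol onto lipid-poor apolipoproteins, was at 83.2, 61.6, 103, 106 and 199 CPM in NPYtet replicates 1 to 5, against 78.0, 56.6, 93.9, 79.1 and 63.0 CPM in WT replicates 1 to 5. NPYtet 5 stood well above every other library, and NPYtet 2 was lower than 4 of the 5 WT libraries. Abca1 averaged 111 ± 52.4 CPM in NPYtet skin and 74.1 ± 14.7 CPM in WT skin (SD, n = 5 each). Its log2 fold change was 0.58 ± 0.32 (SE; edgeR p = 0.0958), with exact permutation p = 0.135 (two-sided; smallest possible 0.00794). It was 0.10 without NPYtet 5, 0.07 without NPYtet 5 and WT 2, and 0.11 without those 2 and NPYtet 1. Abcg1 (ENSMUSG00000024030, chr17:31057675-31117988, plus strand), which passes cholesterol to mature lipoproteins, was at 31.6, 29.9, 27.5, 26.3 and 20.9 CPM in NPYtet replicates, against 24.7, 43.6, 25.6, 23.3 and 46.1 CPM in WT replicates. Its 2 highest libraries, WT 5 and WT 2, were both labelled male. The log2 fold change was -0.19 ± 0.30 (SE) and turned to 0.01 without NPYtet 5.

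In the LXR arm, 2 of 3 genes had log2 fold changes above 0 and none passed the test. Nr1h2 (ENSMUSG00000060601, chr7:44549616-44553951, minus strand), the widely expressed receptor LXR beta, was at 145, 119, 110.3, 108 and 423 CPM in NPYtet replicates 1 to 5, against 97.7, 363, 114, 85.5 and 169.6 CPM in WT replicates 1 to 5. NPYtet 5 and WT 2 stood above the other 8 libraries. Its log2 fold change was 0.29 ± 0.41 (SE) and turned to -0.14 without NPYtet 5. Mylip (ENSMUSG00000038175, chr13:45389742-45412022, plus strand) was at 54.5, 22.7, 48.0, 56.8 and 17.1 CPM in NPYtet replicates, against 57.6, 19.1, 46.6, 53.1 and 35.1 CPM in WT replicates. NPYtet 5, WT 2 and NPYtet 2 were its lowest libraries, and its log2 fold change was -0.41 ± 0.33 (SE), -0.20 without NPYtet 5 and -0.19 without WT 4. Nr1h3, the gene of LXR alpha, had a log2 fold change of 0.20 and ranged from 14.3 to 29.7 CPM in NPYtet skin and 8.81 to 45.9 CPM in WT skin.

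Synthesis and uptake together were then set against export. The 21 genes of synthesis and uptake had a median log2 fold change of 0.22, with 19 above 0, and the 2 exporters a median of 0.19, a difference of 0.03. Without NPYtet 1, 15 of the 21 were above 0 with a median of 0.12. The median of the exporters was 0.05 without NPYtet 5, 0.07 without NPYtet 5 and WT 2, and 0.05 without those 2 and NPYtet 1. Without the sex term the medians were 0.07 and 0.16, a difference of -0.09. A score per library, the mean of each list's log2 CPM after subtracting each gene's mean over the libraries, shows the same data. For synthesis and uptake it was 0.28, 0.48, -0.36, -0.18 and 0.19 in NPYtet replicates 1 to 5, against -0.38, -0.15, -0.34, 0.14 and 0.32 in WT replicates 1 to 5. For export it was 0.03, -0.22, 0.09, 0.08 and 0.36 in NPYtet replicates, against -0.19, -0.01, -0.03, -0.22 and 0.11 in WT replicates. Synthesis and uptake scored highest in NPYtet 2, WT 5 and NPYtet 1 and lowest in WT 1, NPYtet 3 and WT 3. The score of synthesis and uptake minus that of export averaged 0.01 ± 0.46 in NPYtet skin and -0.01 ± 0.29 in WT skin (SD, n = 5 each), so the means differed by far less than the spread in either group. The summed level of the 18 synthesis genes was 2206, 2647, 1300.3, 1540.3 and 2315 CPM in NPYtet replicates, against 1326, 1862, 1351, 2044 and 2305 CPM in WT replicates.

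**Figure D3:**
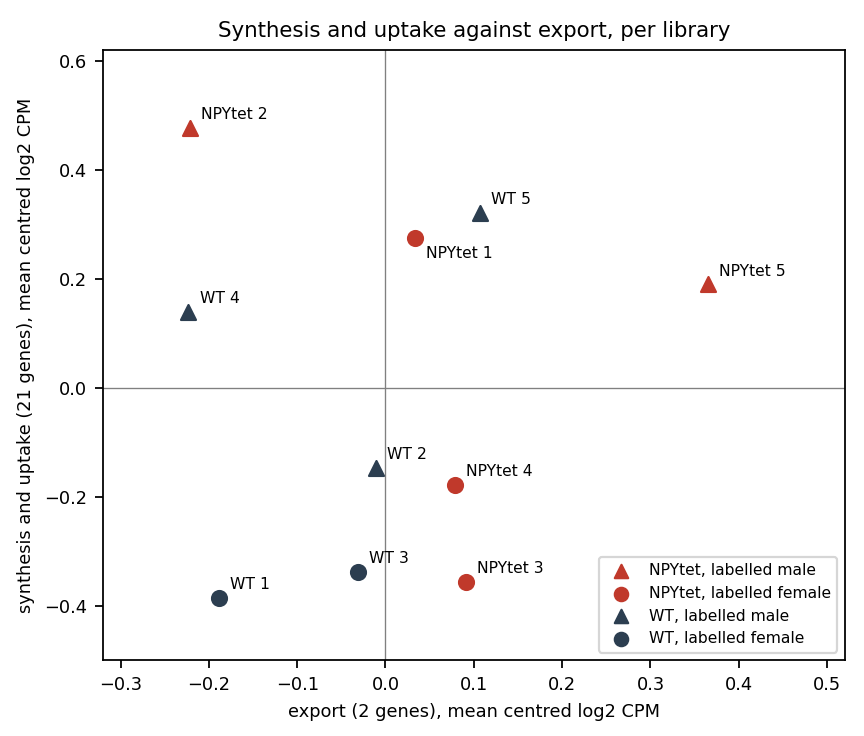
Score of synthesis and uptake (vertical axis, 21 genes) against the score of export (horizontal axis, 2 genes) for each library, both as mean log2 CPM centred per gene; red marks NPYtet, dark blue WT, triangles labelled males and circles labelled females. NPYtet 3, NPYtet 4, WT 1 and WT 3 lie below 0 on the vertical axis with WT 2, and the 2 genotypes are mixed.

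Within the labelled sexes, the genotype difference of synthesis and uptake had a median log2 fold change of 0.13 in males (13 of 21 above 0) and 0.24 in females (20 of 21 above 0). No member passed the test of the difference between the sexes, where 0% of all genes were called, and none had an unadjusted p under 0.05, against 1.63% of all genes. The library of NPYtet 1 counts among the 3 NPYtet females here. In that library Hsd17b7 was at 149 CPM, against 29.9 and 38.4 CPM in the other 2 NPYtet females.

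A further 36 sterol genes outside the 30, among them receptors, esterases, oxysterol enzymes and lipid carriers, did not follow 1 direction: 19 had a log2 fold change above 0 (median 0.02), none passed the test and none had an unadjusted p under 0.05. The 4 with the smallest p were Vldlr, a lipoprotein receptor (0.67 ± 0.37, SE), Cyp7b1, an oxysterol hydroxylase (0.60 ± 0.40), Ch25h, which makes 25-hydroxycholesterol (1.11 ± 0.74), and Gramd1c, a sterol carrier (0.57 ± 0.38). The 6 genes of fatty acid synthesis, which a related SREBP controls, all had log2 fold changes above 0 (median 0.38), and none passed the test. Thrsp, a regulator of lipid synthesis, was at 42.0, 7.38, 140.3, 185 and 38.5 CPM in NPYtet replicates 1 to 5, against 6.12, 19.5, 22.6, 15.4 and 24.2 CPM in WT replicates 1 to 5 (log2 fold change 1.66 ± 0.80, SE). Fasn, Me1 and Elovl6 had log2 fold changes of 0.66 ± 0.44, 0.38 ± 0.32 and 0.38 ± 0.39 (SE).

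Markers of cell types rich in lipid also differed between libraries. All 8 markers of white adipocytes had log2 fold changes above 0 (median 0.81), and their summed level was 2409 to 7441 CPM in NPYtet skin and 1372 to 4439.7 CPM in WT skin. Of 10 sebocyte markers 9 were above 0 (median 0.42), with sums of 1047 to 1797 CPM in NPYtet skin and 691 to 1964 CPM in WT skin. Of 8 macrophage markers 6 were above 0 (median 0.05), with sums of 975 to 1509.8 CPM in NPYtet skin and 432 to 1516 CPM in WT skin. All 11 genes of the hair shaft and its sheath were below 0 (median -4.36), with sums of 23.3 to 11188 CPM in NPYtet skin and 292 to 23859.9 CPM in WT skin. Of 6 skeletal muscle markers 2 were above 0 (median -0.11), with sums of 3467 to 7203 CPM in NPYtet skin and 2815 to 7795 CPM in WT skin. None of these markers passed the test, and 1 gene of the hair list had 0 reads in a library. The 4 liver markers summed to 1.46 to 19.98 CPM in NPYtet skin and 1.29 to 4.23 CPM in WT skin. The part of these cell types in the values of the 30 genes was not tested.

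The second comparison was between the labelled sexes, which both genotypes hold. With all 10 labels as given, no member passed the test of sex, where 2.48% of all genes were called. On the same libraries DESeq2 called 7 members, 6 higher in males and Mylip lower, where it called 7.76% of all genes higher and 5.09% lower. There limma voom called 13, 12 higher in males and 1 lower, against 13.6% of all genes higher and 17.3% lower. At an unadjusted p under 0.05, 11 of the 30 differed, against 24.6% of all genes: 10 were higher in males (Mvk, Pmvk, Mvd, Lss, Msmo1, Hsd17b7, Ebp, Srebf2, Scap and Nr1h2) and Mylip was lower. Of the 18 synthesis genes 16 had a log2 fold change (male minus female) above 0. Of the 36 sterol genes outside the 30, 18 were above 0 (median -0.02). The edgeR test of sex called 2 of these 36, both higher in males, against 2.48% of all genes. They were Tmem97 (1.40 ± 0.30, SE; edgeR adjusted p = 0.0293) and Sult2b1 (1.39 ± 0.33; 0.0434). At an unadjusted p under 0.05, 10 of the 36 were higher in males and 3 lower.

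Leaving out NPYtet 1, whose reads go against its label, left 5 males and 4 females, and 4 synthesis genes were then called higher in males. Of all genes, 1.81% were called higher in males and 1.28% lower in males in that fit. Lss (ENSMUSG00000033105, chr10:76531588-76557138, plus strand), lanosterol synthase, was at 168, 83.0, 154, 111 and 156 CPM in the males NPYtet 2, NPYtet 5, WT 2, WT 4 and WT 5, against 40.1, 50.4, 49.3 and 36.9 CPM in the females NPYtet 3, NPYtet 4, WT 1 and WT 3. Its log2 fold change was 1.64 ± 0.33 (SE; edgeR adjusted p = 0.0186). Hsd17b7, whose promoter is printed above, was at 200.2, 72.5, 44.4, 122 and 138 CPM in the same males, against 29.9, 38.4, 34.5 and 35.7 CPM in the same females. The lowest male, WT 2, stood close to the females, and the log2 fold change was 1.79 ± 0.41 (SE; edgeR adjusted p = 0.0300). Mvd (ENSMUSG00000006517, chr8:122433601-122443422, minus strand), mevalonate diphosphate decarboxylase, was at 88.6, 154, 194, 54.3 and 109.6 CPM in the males, against 48.8, 40.8, 38.4 and 47.6 CPM in the females (log2 fold change 1.497 ± 0.38, SE; edgeR adjusted p = 0.0458). Ebp (ENSMUSG00000031168, chrX:8185329-8193512, minus strand), the sterol isomerase, was at 86.0, 78.0, 108, 53.6 and 117 CPM in the males, against 40.2, 35.3, 36.2 and 41.2 CPM in the females (log2 fold change 1.24 ± 0.32, SE; edgeR adjusted p = 0.0496). Every male lay above every female for these 4 and for Mvk, Pmvk, Fdft1 and Srebf2, 8 of the 30 members, against 5.28% of all genes. No member had every male below every female, and the share of all genes in that direction was not computed. In the library of NPYtet 1, 21 of the 30 genes, 15 of them among the 18 synthesis genes, lay above the other 4 libraries labelled female. The share of all genes that did so was not computed, so the count is not a result about these genes. Lss was at 124 CPM in NPYtet 1.

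**Figure D4:**
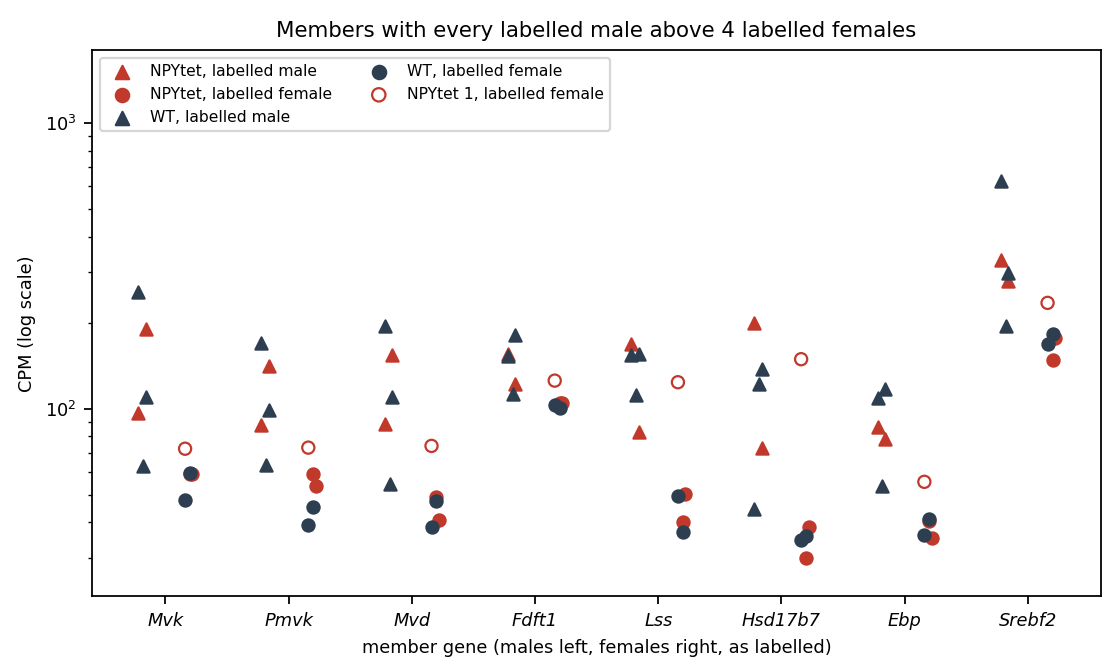
CPM on a log scale of the 8 genes for which all 5 labelled males (triangles, left) lay above 4 labelled females (filled circles, right); red marks NPYtet and dark blue WT. The open circle is NPYtet 1, labelled female, which lies above the filled circles for all 8, with Lss at 124 and Hsd17b7 at 149 CPM.

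The call depended on which libraries were used. With NPYtet 1, NPYtet 5 and WT 2 left out, 6 synthesis genes were called higher in males, Hsd17b7 (2.20 ± 0.22, SE; edgeR adjusted p = 0.00323), Lss (1.77 ± 0.22; 0.00740), Cyp51 (1.38 ± 0.21; 0.0130), Msmo1 (1.33 ± 0.23; 0.0221), Acat2 (0.98 ± 0.19; 0.0291) and Ebp (1.195 ± 0.27; 0.0447). Of all genes, 2.53% were called higher in males and 2.55% lower in that fit. Mvd was then not called, at 0.99 ± 0.26 (SE; edgeR adjusted p = 0.0642). Without NPYtet 5 and WT 2 alone, none was called, where 2.13% of all genes were called higher in males and 1.51% lower. In that fit 14 members were higher in males at an unadjusted p under 0.05, against 2533 of 18286 genes. The smallest edgeR adjusted p of a member was 0.0513, for Acat2. Without WT 4, 9 were called, 8 higher in males and Mylip lower, and 7.82% of all genes were called higher and 7.05% lower, the largest share for any 1 library left out. Without any of the other 8 libraries apart from NPYtet 1, no member was called. Over all genes, these fits called from 41 of 18317 (without WT 3) to 469 of 18311 (without WT 1) higher in males. Neither exporter was called in any of these fits. Abca1 was at 61.6, 199, 56.6, 79.1 and 63.0 CPM in the males, against 103, 106, 78.0 and 93.9 CPM in the females, and Abcg1 at 29.9, 20.9, 43.6, 23.3 and 46.1 CPM in the males, against 27.5, 26.3, 24.7 and 25.6 CPM in the females. Markers of other cells are given for the same libraries. Col1a1, the collagen gene of dermal fibroblasts, was at 13731, 8104, 15233, 11097 and 24752 CPM in the males, against 2212, 2206, 3160.3 and 2548 CPM in the females, and at 29288 CPM in NPYtet 1. The sebocyte markers summed to 962.6 to 1964 CPM in the males and 691 to 1305 CPM in the females, and the macrophage markers to 432 to 1112 CPM in the males and 847 to 1516 CPM in the females. With all 10 labels as given, 1 gene of each of 3 marker lists was called by sex. Krt14, a keratin of basal keratinocytes, was higher in males (2.79 ± 0.54, SE; edgeR adjusted p = 0.0197), at 9645, 19768, 32526, 3859 and 13435 CPM in the males, against 2118, 1941, 1775 and 2523 CPM in the females, and 3066 CPM in NPYtet 1. Elovl3, a sebocyte marker, was also higher in males (1.95 ± 0.39, SE; edgeR adjusted p = 0.0224), and Cd163, a macrophage marker, was lower (-1.68 ± 0.39; 0.0384). Log2 fold changes for sex were above 0 for 4 of the 5 skin markers (median 1.27), 6 of the 10 sebocyte markers (0.35), 3 of the 8 macrophage markers (-0.58), 3 of the 8 adipocyte markers (-0.09) and all 11 hair genes (3.995). They were above 0 for 1 of the 6 genes of fatty acid synthesis (median -0.20) and 1 of 6 skeletal muscle markers (-0.39). No other gene of these lists was called. Their part in the sex difference was not tested.

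The 2 libraries with the fewest genes, NPYtet 5 and WT 2, set the extremes of many members. Both are labelled male. WT 2 was above the median of the other 4 WT libraries for 15 members and below it for 15, and the 2 sets did not overlap in GC content of the longest coding transcript: 50.9% to 60.6% for those above and 41.9% to 50.2% for those below. Scap (59.1% GC) was 4.67 times that median in WT 2 and Mvk (59.6%) 4.18 times, while Hmgcs1 (43.1%) was 0.180 times and Sc5d (42.9%) 0.254 times. NPYtet 5 differed from the other 4 NPYtet libraries in the same direction as WT 2 did for 24 members, with 2.88 times the median for Mvk and 0.575 times for Hmgcs1. Msmo1 and Abca1 were exceptions, at 2.36 and 2.13 times in NPYtet 5 and 0.629 and 0.721 times in WT 2. As a description over the 30 members, which share each library, Spearman's rho between this ratio and GC content was 0.607 for NPYtet 5 and 0.917 for WT 2; over 18019 genes it was 0.140 and 0.678. Such values were not particular to these 2 libraries: rho was -0.382 for NPYtet 4, -0.578 for WT 1, -0.821 for WT 4 and 0.359 for WT 5 over the members, and -0.386, -0.493, -0.548 and 0.486 over all genes. For NPYtet 1, NPYtet 2, NPYtet 3 and WT 3, rho was -0.325, -0.0492, -0.0129 and -0.292 over the members. Over all genes it was 0.285, 0.19, -0.284 and -0.335, so members and all genes differed in sign in NPYtet 1 and NPYtet 2. Over all genes, rho was above 0 in every labelled male except WT 4. It was below 0 in every labelled female except NPYtet 1. The GC trend and sex thus largely ran together in these libraries, which limits what the comparison of the sexes can show. The log2 fold changes for sex followed GC content over the members (rho 0.634), less so with NPYtet 1, NPYtet 5 and WT 2 left out (0.169), and those for genotype had a rho of -0.369. A fit with a GC offset per library, added after the data were seen, called 7 members higher in males (Mvk, Pmvk, Mvd, Lss, Msmo1, Ebp and Scap), where 3.76% of all genes were called higher and 2.47% lower, and no member by genotype.

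**Figure D5:**
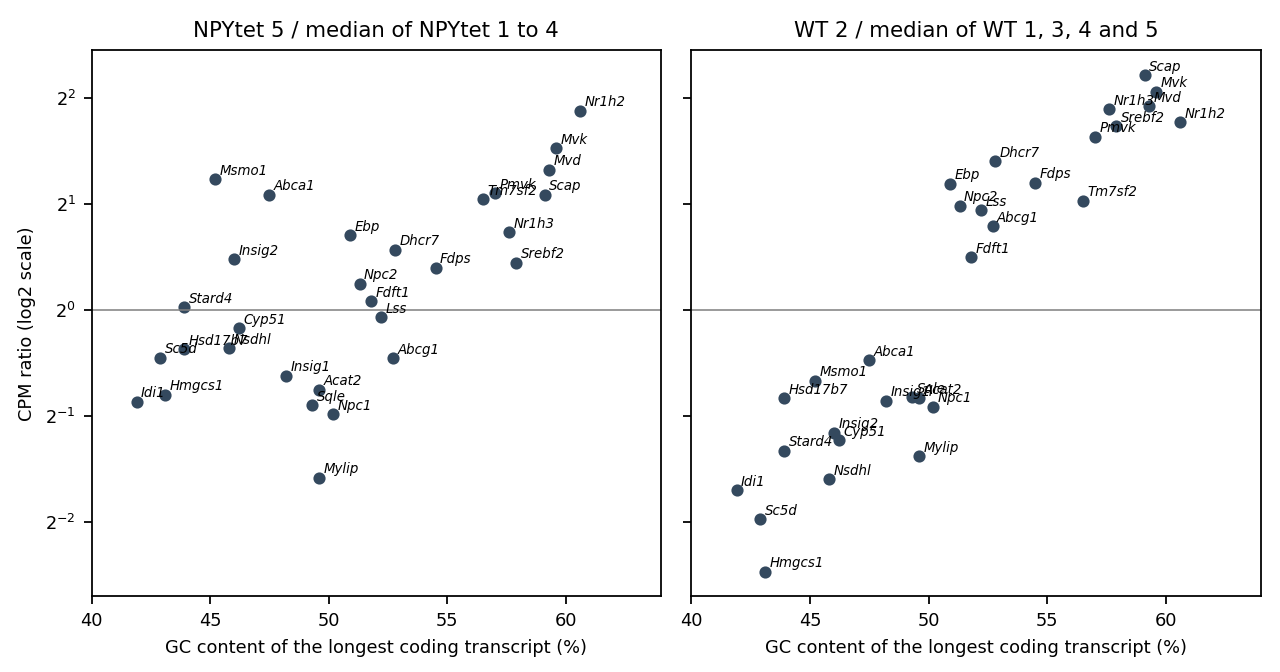
CPM in NPYtet 5 over the median of NPYtet 1 to 4 (left) and in WT 2 over the median of the other 4 WT libraries (right), on a log2 scale, against the GC content of each gene's longest coding transcript; each point is 1 of the 30 genes. In WT 2 every gene above 50.2% GC lies above the line at 1 and every other gene below it, while NPYtet 5 shows a looser slope with Msmo1 and Abca1 above the rest at low GC.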

How the data were processed

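Whole-skin poly(A) RNA was sequenced in 10 libraries, 5 per genotype, each labelled with its own mouse. Extraction used TRIzol and an RNeasy column, and libraries were directional and paired-end, per the labels' protocols. Per the submitters' processing notes, the mm10 build was used with STAR 2.5.2, Trimmomatic 0.36, FastQC 0.11.8, bcl2fastq and DESeq2 1.30.1. The deposited files hold raw counts of reads, in whole numbers, for each Ensembl gene. Neither the strand column nor the annotation release is given in the sources here. Of 49671 IDs, 49412 matched GENCODE M21; the other 259 took 0.0189% of reads.

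Counts were fitted with edgeR 4.0.16 in R 4.3.3: filterByExpr (minimum count 10, minimum total 15; 18060 genes), TMM scaling, and the robust quasi-likelihood test on sex and genotype. P-values were adjusted by Benjamini and Hochberg over all genes tested, with a threshold of 0.05. A second model with a term per genotype and labelled sex gave the values within each sex. CPM uses scaled library sizes, and a prior count of 2 was added before taking log2. Exact permutation tests compared mean log2 CPM without the sex term, two-sided, over the 252 divisions of the libraries. P-values set a difference against the variation between these libraries, and totals per library limit the precision of low counts.

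The members, lists and tests were chosen with earlier results of these data known. Any of the 30 could be named; values per library are given for the 2 genes with the smallest genotype p and the 1 with the highest level per length in each list, and for the genes called by sex or set beside them, which were chosen after their values were seen. From the other sterol genes and from fatty acid synthesis, the 4 with the smallest genotype p are named. The 2 other sterol genes called by sex are also named, and were chosen after their values were seen. Replicate numbers do not mark litters or batches in the labels. Alternatives were DESeq2 1.42.0, limma 3.58.1 (voom with quality weights), other scaling and filters, no sex term, a replicate block and leaving out each library. Added after seeing the data were the GC offset, the removal of NPYtet 5 and WT 2 together, and, for sex, the removal of NPYtet 1, NPYtet 5 and WT 2. The fit was also run on simulated data without a sex effect or GC trend, so that run does not gauge which changes could be found in these libraries.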

Additional observations from a re-analysis of the deposited data

Results flagged for a closer look

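Each of the 30 genes was examined in each genotype for a library lying far from the other 4, by Dixon's criterion, which chance alone meets in about 1 group of 20. It was met in 4 of 60 groups. Stard4 was at 38.79 CPM in NPYtet 3, below the 46.6 to 49.3 CPM of the other NPYtet libraries. Nr1h2 was at 423.4 CPM in NPYtet 5, above 108 to 145 CPM in the others. Fdps was at 13.17 CPM in WT 2, above 4.91 to 6.32 CPM in the other WT libraries, and Nsdhl at 15.28 CPM in WT 2, below 37.5 to 50.7 CPM. NPYtet 5 and WT 2 are the libraries with the fewest genes detected, and Nr1h2 (60.6% GC) and Fdps (54.5%) were high there while Nsdhl (45.8%) was low.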

How the results depend on the processing

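Genotype called none of the 30 genes under any alternative run. Of all genes it called 35 with DESeq2, 2 with limma voom, 409 with no filter on low counts and 0 with NPYtet 1, NPYtet 5 and WT 2 left out. Leaving out each library in turn gave 1 to 8 genes. The median log2 fold change of synthesis and uptake stayed above 0 throughout, while its difference from export ran from -0.09 with no sex term to 0.21 without NPYtet 5. The count of the 30 with a log2 fold change above 0 ran from 16 with no sex term to 27 with the GC offset, and 0 to 8 changed sign in any 1 alternative. Of the 14 genes with genotype values per library, 6 turned direction under some alternative, as did Ebp, and the cause was not tested. Ebp turned to 0.0131 with DESeq2, 0.0117 with a CPM of at least 1 in 5 libraries, 0.0131 with RLE size factors, 0.0457 with upper quartile scaling, 0.133 with the GC offset and 0.142 without NPYtet 5 and WT 2. Srebf2 turned to 0.0365 with the GC offset, 0.119 without NPYtet 1, NPYtet 5 and WT 2 and 0.231 without NPYtet 5 and WT 2. Insig2 turned to -0.0866 with limma voom, -0.210 without the 3 and -0.132 without the 2 libraries. Nr1h2 turned to -0.0412 with limma voom and -0.000838 without the 3, Abcg1 to 0.0633 without the 2, and Pmvk to -0.00762 with no sex term. Over single libraries left out, log2 fold changes ran from -0.119 to 0.102 for Ebp, -0.0197 to 0.253 for Npc2, -0.232 to 0.183 for Srebf2, -0.0257 to 0.284 for Insig2, -0.300 to 0.00939 for Abcg1 and -0.143 to 0.588 for Nr1h2.

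For sex, DESeq2 called 2316 genes and 7 members, limma voom 5590 and 13, no filter 2380 and 7, the GC offset 1122 and 7, and the fit without NPYtet 1, NPYtet 5 and WT 2 949 and 6. Single libraries left out gave 58 (without WT 3) to 2725 genes (without WT 4) and 0 to 9 members. The export median was -0.0653 with limma voom and 0.342 with the GC offset, and the difference of synthesis and uptake from export was 0.741 without the 3 libraries. Abca1 turned to -0.511 with limma voom, -0.0325 with no filter, -0.434 without the 3 and -0.39 without the 2 libraries, and ran from -0.439 to 0.195 over single libraries left out. The test of genotype between the sexes called 2 genes with DESeq2 and no member.

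With the replicate block, 1 gene and 0 members were called by genotype and the medians were 0.18 for synthesis and uptake and 0.09 for export. Deviations of same-numbered libraries correlated at -0.256, 0.304, 0.644, 0.0931 and 0.0761, and no WT library correlated best with the NPYtet library of its own number. These correlations cannot decide whether the numbers pair mice, since the labels give no litter or batch to check them against. With 5 libraries per genotype, SEs of the log2 fold changes of the 30 genes ran from 0.26 to 0.49.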
